A study of Mus musculus with 2 samples.

Results

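The TRIM family was followed in activated mouse macrophages that differed in the gene for SIRPα, the myeloid receptor that takes an inhibitory signal from CD47 on other cells. Members were all rows of both deposited expression tables whose symbol is Trim followed by a digit, which gave 57 of 16263 genes. Of 69 genes with such a symbol in RefSeq's annotation of GRCm38.p6, these 57 were in the tables, and the other 12, among them Trim5, Trim30c and Trim38, were not analysed here. The SIRPα-KO group was 1 library from bone marrow-derived macrophages of mice whose genotype is labelled SIRPalpha-/-, and the WT group was 1 library from wild-type mice, both C57BL/6. Marrow cells had been cultured with M-CSF-conditioned medium for 5 days, and both groups were then activated for 6 h with 20 ng/ml interferon-γ and 100 ng/ml bacterial lipopolysaccharide (LPS) while exposed to a reagent labelled mCD47.ex. Cells of 5 mice were mixed per genotype before RNA was taken, so each group is a single pooled sample, untreated cells are not among the samples used here, and no value below has a replicate error or a test. A difference below therefore describes these 2 libraries.

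TRIM proteins are ubiquitin ligases built from a RING domain, B-boxes and a coiled coil, followed in many members by a domain that recognises the target. Macrophages use a large interferon-inducible subset of them against viruses and to tune signalling from toll-like receptors and cytosolic nucleic acid sensors, while other members act in chromatin, the cytoskeleton, muscle or nerve. In the mouse, several of the interferon-inducible members lie side by side on chromosome 7 as related copies. Interferons act on such genes largely through the interferon-stimulated response element (ISRE), which is bound by proteins of the IRF family among others.

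The upstream sequences of the chromosome 7 copies are shown because the levels of these genes dominate the family and because the copies differ in how like each other they are. Each line is a 60-base stretch before the annotated start in RefSeq's table for GRCm38.p6, written 5′ to 3′ on the strand of the gene. Capitals mark matches to the ISRE core, GAAA followed by any 2 bases and GAAA again. It was searched on both strands and reads TTTC, 2 bases, TTTC when it lies on the opposite strand, as all matches below do. Trim26, on chromosome 17, is added because it is the only other one of the 42 members searched with a match before its start.
Trim30a: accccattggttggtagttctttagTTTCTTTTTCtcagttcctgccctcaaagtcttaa
Trim30d: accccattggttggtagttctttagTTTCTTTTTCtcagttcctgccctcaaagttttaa
Trim30b: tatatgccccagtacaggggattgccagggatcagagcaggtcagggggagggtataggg
Trim12c: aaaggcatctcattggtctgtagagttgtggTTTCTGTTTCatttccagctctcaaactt
Trim12a: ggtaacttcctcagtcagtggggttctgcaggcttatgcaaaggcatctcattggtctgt
Trim34a: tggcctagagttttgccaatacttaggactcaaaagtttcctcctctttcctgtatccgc
Trim34b: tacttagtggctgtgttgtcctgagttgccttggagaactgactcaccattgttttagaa
Trim26: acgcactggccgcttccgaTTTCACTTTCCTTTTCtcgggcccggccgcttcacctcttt

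The Trim30a stretch is chr7:104465195-104465254 on the minus strand, the Trim30d stretch chr7:104507856-104507915 on the minus strand, and the Trim30b stretch chr7:104358647-104358706 on the minus strand. Those of Trim12c and Trim12a are chr7:104353350-104353409 and chr7:104315496-104315555, both on the minus strand. Those of Trim34a and Trim34b are chr7:104244397-104244456 and chr7:104329411-104329470, both on the plus strand, and that of Trim26 is chr17:36836967-36837026 on the plus strand. The Trim30a and Trim30d stretches differed at 1 of 60 bases, and the ISRE match began 36 bases before the start of Trim30a and 41 before that of Trim30d. Compared base by base without gaps, Trim30b differed from Trim30a at 53 of 60 bases. Counted in the same way, Trim12a and Trim12c differed at 46 and Trim34a and Trim34b at 49. Such a count is also high where a shared sequence is shifted, as in the Trim12 pair. The last 21 bases of the Trim12a stretch are the first 21 of the Trim12c stretch, so the annotated starts of this pair sit at different points of a shared sequence. Over the whole 250 bases before the start, aligned identity was 89.0% between Trim30a and Trim30d, 69.0% between Trim12a and Trim12c, 48.5% between Trim30a and Trim30b and 47.9% between Trim34a and Trim34b.

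Windows of 250 bases before a start were on hand for 42 of the 57 members, 56 windows in all, and 4 windows (7.14%) held an ISRE match, against 2.98% of 32851 such windows of all RefSeq genes. When the first 50 transcribed bases were included, Trim12a, Trim21 and Trim34a also held a match, as did a second start of Trim30a and a window of Trim2, a gene close to 0 in both libraries. That brought the count to 9 of 56 windows (16.1%), against 3.44% of all windows, in a search added after seeing the data. The member windows with a match are not independent. Over 250 bases before the start, Trim30a and Trim30d were 89.0% identical and Trim12a and Trim12c 69.0%. With the transcribed bases included, Trim30a is also counted again at its second start. These shares therefore do not show an enrichment across the family, which was not tested. The gamma-activated site core, TTC and GAA set 3 bases apart, reads the same on both strands. It was in 4 of the 56 member windows (7.14%) and in 7.02% of all windows, and it overlapped no ISRE match in a member. These windows belong to Trim45, Trim46 and Trim15, genes at 0.18 FPKM or less in both libraries. Trim15 is counted at 2 overlapping windows that hold the same site. A match is a run of letters and was not tested for binding, and Trim35, Trim14, Trim33, Trim3 and Trim36 have no sequence shown.

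Values are FPKM (fragments counted per kilobase of each transcript and corrected for the size of the library), a unit inferred from the values because the tables name none. FPKM allows levels to be compared between genes per length. Differences are given as the log2 ratio of FPKM + 1, SIRPα-KO over WT (the added 1 makes differences of low genes look smaller), and a gene is called higher or lower when that ratio is at least 2-fold. Low values rose in steps that fitted about 10900000 reads in SIRPα-KO against about 11000000 in WT, and these approximate depths give the read numbers quoted for genes with a single listed transcript. Sirpa itself was at 71.47 FPKM in SIRPα-KO against 153.87 in WT, so its transcript was lower but present in the library labelled SIRPα-KO. Of 6 macrophage markers measured, the summed level was 9709 FPKM in SIRPα-KO against 9699 in WT, a sum that is mostly Lyz2 (7208 against 7106), and 1 of the 6, Csf1r, was called lower at 109.8 FPKM in SIRPα-KO against 247.59 in WT. By contrast, 6 neutrophil markers summed to 190.7 FPKM in SIRPα-KO against 415 in WT, and 5 of those 6 were called lower. Dendritic cell markers (4 genes) summed to 29.56 FPKM in SIRPα-KO against 8.79 in WT, a sum that is mostly Ccr7 (23.81 against 6.93). Both kept genes, Ccr7 and Dpp4, were called higher. Under the filter, Flt3 was at 0.1 FPKM in SIRPα-KO against 0.34 in WT and Zbtb46 at 0.7 against 0.2. Stromal markers (3 genes) summed to 4.92 against 5.35, B cell markers (3 genes) to 1.36 against 3.13 and T and NK cell markers (4 genes) to 0.25 against 0.03. None of these last 3 lists held a call. Of 5 sex-linked genes, 4 on the Y chromosome were called higher, and Xist, which marks female cells, was at 0.91 FPKM in SIRPα-KO against 47.54 in WT, so that sex and genotype cannot be told apart. In pooled cells, fewer cells of a type and less RNA per cell cannot be told apart either, and the part that any of these differences plays in the TRIM values was not tested.

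The TRIM family was expressed at nearly the same total level in both libraries, and it was carried by few members. The 57 values summed to 1036.4 FPKM in SIRPα-KO against 1005.6 in WT, which is 0.239% and 0.226% of all FPKM in those libraries. Trim30a made up 34.4% of the family sum in SIRPα-KO and 31.8% in WT, and the chromosome 7 cluster as a whole made up 58% in SIRPα-KO and 57.7% in WT. At the other end, 23 members stayed under 1 FPKM in both libraries.

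Of the 34 members that reached 1 FPKM in either library, 1 was called higher (Trim34b), 2 were called lower (Trim30b and Trim36) and 31 were neither. That is 8.82% of them, against 7.73% of all 10092 genes kept by the same filter, of which 3.43% were higher and 4.3% lower. The share among TRIM genes was thus near that of all genes. The median log2 ratio was 0.10 over the kept members and 0.06 over all kept genes, and the median absolute log2 ratio was 0.31 over the kept members and 0.28 over all kept genes. At a limit of 1.5-fold for the ratio of FPKM + 1, 5 members were higher and 4 lower, together 26.5%. That compares with 21.2% of all kept genes, of which 10.9% were higher and 10.2% lower. Of the 34 members, 26 reached 1 FPKM in both libraries, 6 in SIRPα-KO alone (Trim34b, Trim37, Trim43b, Trim43c, Trim47 and Trim68) and 2 in WT alone (Trim52 and Trim65). Members that pass in 1 library alone are bound to differ in its favour. The 5 members higher at 1.5-fold were Trim35, which passed in both, and Trim34b, Trim37, Trim43c and Trim47, which passed in SIRPα-KO alone. The 26.5% thus includes members whose direction the filter fixed.

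**Figure D1:**
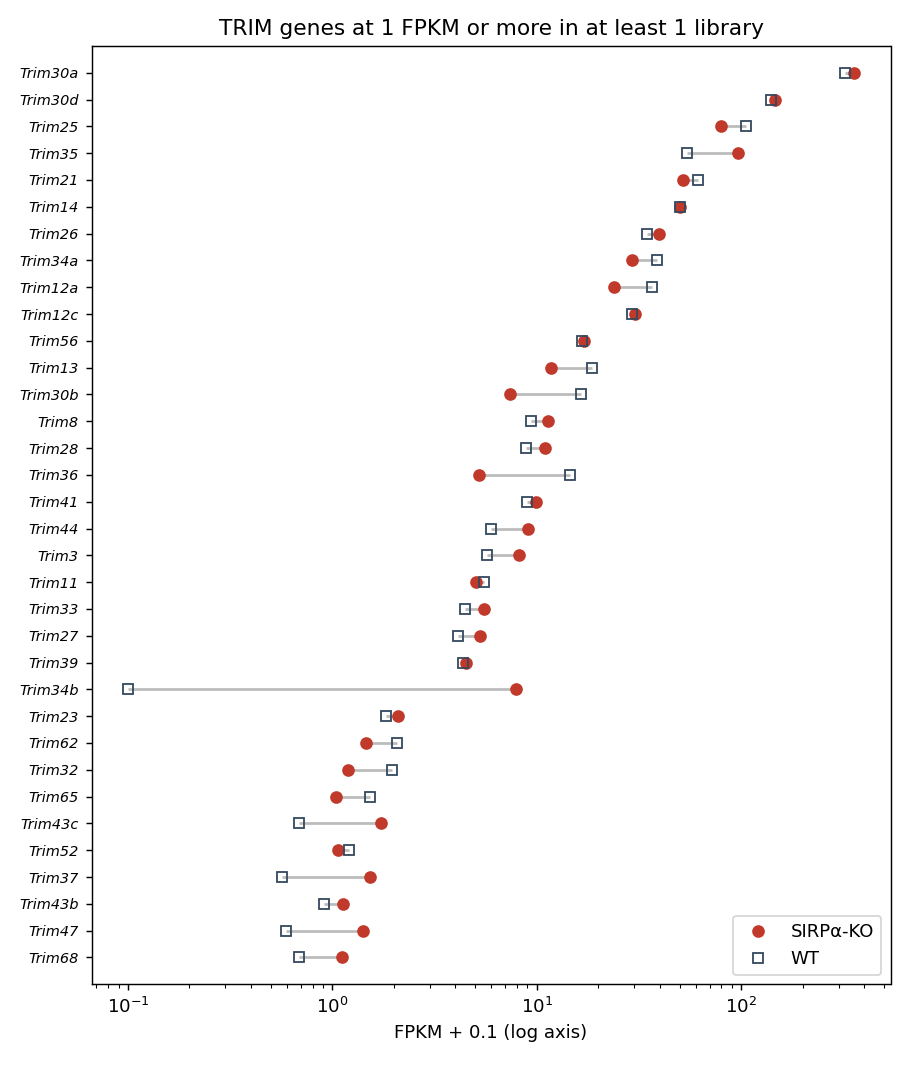
FPKM + 0.1 on a log axis for the 34 TRIM genes that reached 1 FPKM in either library, ordered by the mean of both, with filled circles for SIRPα-KO and open squares for WT (1 pooled library each, no error bars). Trim30a leads at 356.6 FPKM in SIRPα-KO against 319.94 in WT, most pairs of points lie close together, and Trim34b, listed at 0 in WT, has the longest line.

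Within the chromosome 7 cluster the most abundant copies, Trim30a and Trim30d, were close to equal in the 2 libraries. Of the next copies by mean level, Trim12c was also close to equal, with a log2 ratio of 0.04. Trim34a and Trim12a were lower in SIRPα-KO, with log2 ratios of -0.38 and -0.59. Trim30a, an interferon-inducible ligase reported in mouse macrophages to limit NF-κB activation by degrading the adaptors TAB2 and TAB3, was at 356.6 FPKM in SIRPα-KO against 319.94 in WT, a log2 ratio of 0.16. It was the most abundant TRIM gene of both libraries and ranked 196 of 16263 genes in SIRPα-KO against 233 in WT. Trim30d, whose upstream stretch is almost that of Trim30a, was at 145.51 FPKM in SIRPα-KO against 139.67 in WT, a log2 ratio of 0.06. Trim30a and Trim30d shared 6.5% of their 50-base transcript words with each other. That share counts exact matches only, and how reads that nearly fit both were assigned is not known.

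Trim30b, whose upstream stretch does not resemble that of Trim30a, went the other way. Any link between upstream sequence and the level of these copies was not tested. Trim30b was at 7.29 FPKM in SIRPα-KO against 16.28 in WT, a 2.23-fold lower level with a log2 ratio of -1.06. These values stand for about 220 reads in SIRPα-KO against 496 in WT. The share of its 50-base words found in another gene of the tables was 0.0%, and the difference lay just past the 2-fold limit. The pseudogene Trim30e-ps1 was at 0.19 FPKM in SIRPα-KO against 0.14 in WT. The 4 Trim30 rows together came to 509.6 FPKM in SIRPα-KO against 476.03 in WT, a log2 ratio of 0.10, because Trim30b adds little to the sum.

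Trim34a and Trim34b showed opposite differences. Trim34b was at 7.84 FPKM in SIRPα-KO, about 156 reads, and was listed at 0 in WT, which gives a log2 ratio of 3.14 that depends on the pseudocount and stands for no fold. Trim34a, an interferon-inducible relative of the antiviral TRIM5 of primates, was at 29.2 FPKM in SIRPα-KO against 38.4 in WT, a log2 ratio of -0.38. Of the 50-base words of Trim34b, 59.0% also occur in Trim34a, and 41.5% of those of Trim34a occur in Trim34b. When genes outside the tables are included, 62.2% of the Trim34a words occur in another gene, and the sum below leaves those genes out. The sum of both genes was 37.04 FPKM in SIRPα-KO against 38.4 in WT, a log2 ratio of -0.05. How the shared reads of this pair were assigned is not given in the sources used here, so the single call of a higher TRIM gene is uncertain and is absent from the sum.

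Trim12a and Trim12c are also mouse relatives of primate TRIM5, a factor that binds retroviral capsids. Trim12a was at 23.88 FPKM in SIRPα-KO against 36.55 in WT, 1.53-fold lower with a log2 ratio of -0.59. Trim12c was at 30.09 FPKM in SIRPα-KO against 29.21 in WT, a log2 ratio of 0.04. Trim12a shares 16.1% of its words with Trim12c and 20.1% with Trim5, and Trim12c shares 24.2% with Trim5, so the values of both are uncertain. The sum of Trim12a and Trim12c was 53.97 FPKM in SIRPα-KO against 65.76 in WT, a log2 ratio of -0.28. Trim6, at the edge of the cluster, was at 0.23 FPKM in SIRPα-KO against 0.53 in WT, about 10 and 22 reads.

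**Figure D2:**
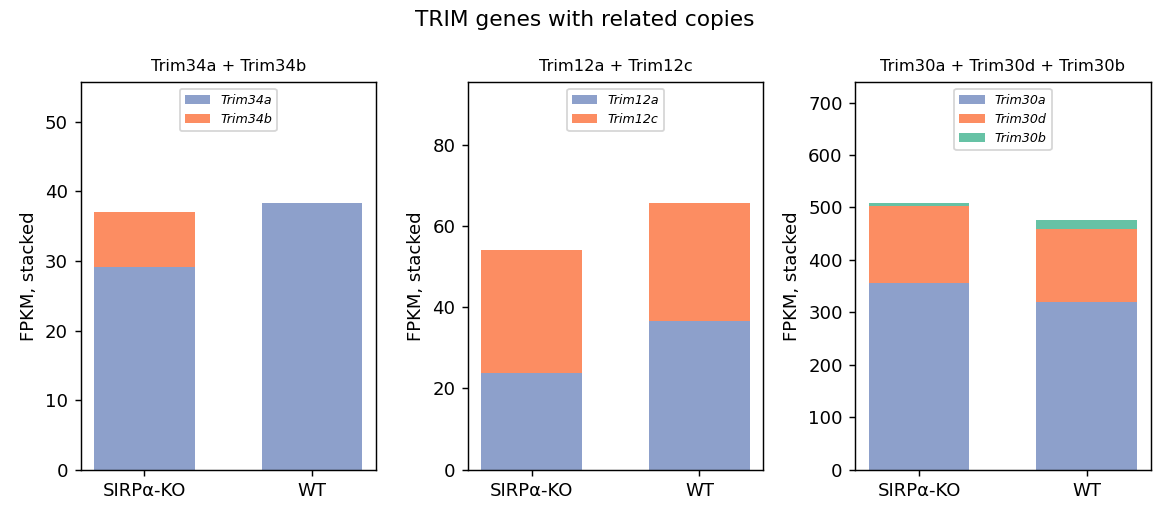
FPKM of related TRIM copies, stacked, in SIRPα-KO (left bar) and WT (right bar), with 1 pooled library each and no error bars. The Trim34 bars reach 37.04 FPKM in SIRPα-KO against 38.4 in WT although Trim34b appears in the SIRPα-KO bar alone, the Trim12 bars reach 53.97 and 65.76, and Trim30b is a thin layer on Trim30a and Trim30d.

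Of the 16 listed members that act on nucleic acid sensing and antiviral signalling, 13 were measured, 11 were kept, and all 11 fell short of 2-fold (7.73% of all kept genes did not), a number too small to tell the group from all genes, with a median log2 ratio of 0.01. Trim25, which ubiquitinates the RNA sensor RIG-I, was at 79.85 FPKM in SIRPα-KO against 105.25 in WT, 1.32-fold lower with a log2 ratio of -0.39. Trim21, a cytosolic antibody receptor that directs antibody-coated viruses to the proteasome, was at 51.73 FPKM in SIRPα-KO against 61.28 in WT, a log2 ratio of -0.24. Both were thus lower in SIRPα-KO by less than 1.5-fold.

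Trim35 had the largest log2 ratio in the upward direction among the members at 5 FPKM or more in both libraries. Trim35, first described in lineage switching of mouse blood cells and linked in human cells to degradation of IRF7, was at 96.26 FPKM in SIRPα-KO against 54.17 in WT. That is 1.78-fold higher, a log2 ratio of 0.82, from about 3859 reads in SIRPα-KO against 2192 in WT. In SIRPα-KO its level was above those of Trim25 and Trim21, and in WT it was below both. Of its words, 1.4% occurred in another gene.

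Others of the group were close to equal. Trim14, an adaptor that lacks a RING domain and acts at mitochondria with MAVS in human cells, was at 50.22 FPKM in SIRPα-KO against 49.85 in WT, a log2 ratio of 0.01. Trim56, a ligase tied to STING and cGAS signalling, was at 16.95 FPKM in SIRPα-KO against 16.49 in WT, a log2 ratio of 0.04. Trim26, encoded in the MHC region and shown above for its pair of overlapping ISRE matches, was at 39.61 FPKM in SIRPα-KO against 34.67 in WT, a log2 ratio of 0.19. Trim41 was at 9.86 FPKM in SIRPα-KO against 8.81 in WT, and Trim23, which carries an ARF-type GTPase domain, was at 1.99 and 1.72. These 5 genes lay within 0.2 of 0 on the log2 scale.

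Trim13, a ligase anchored in the endoplasmic reticulum, was at 11.68 FPKM in SIRPα-KO against 18.5 in WT, 1.58-fold lower with a log2 ratio of -0.62. Of its words 14.2% occur in an unnamed gene model outside the tables. Trim32, which carries NHL repeats, was at 1.09 FPKM in SIRPα-KO against 1.85 in WT, and Trim65, which acts on the RNA sensor MDA5, was at 0.94 and 1.42. The remaining measured members of this group, Trim15 and Trim29, stayed at or below 0.1 FPKM in both libraries.

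**Figure D3:**
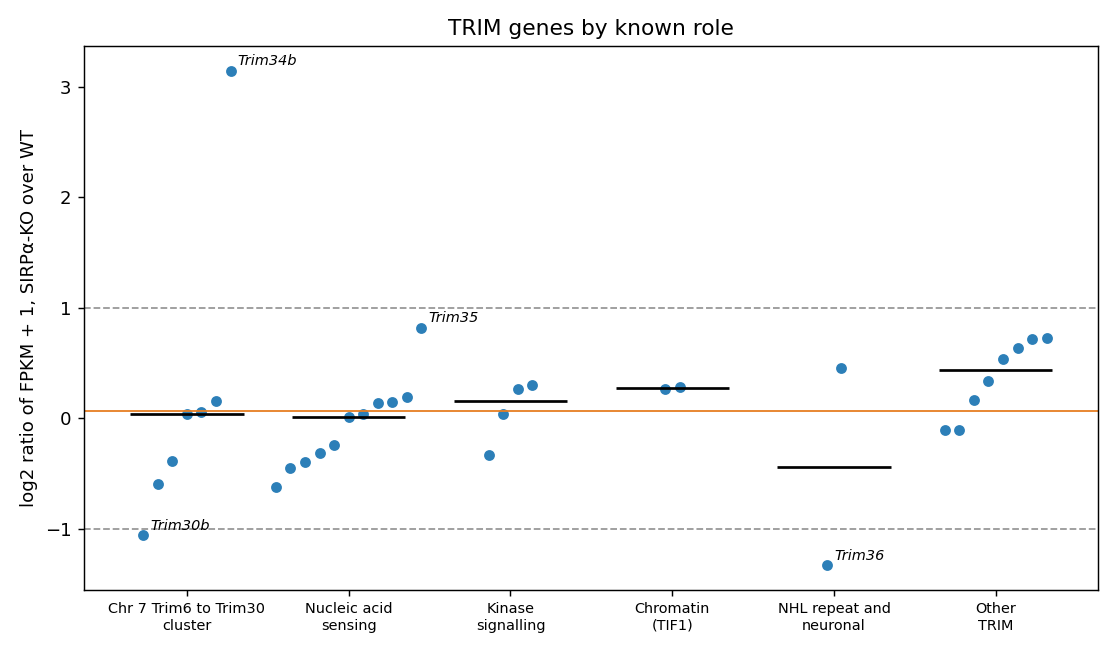
Log2 ratio of FPKM + 1, SIRPα-KO over WT, for the 34 kept TRIM genes, 1 point each, grouped by known role, with black bars at group medians, an orange line at the median of all kept genes (0.06) and dashed lines at 2-fold. Trim34b, Trim30b and Trim36 lie outside the dashed lines and Trim35 lies just inside at 0.82.

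Trim36 had the lowest ratio of the family. Trim36, a microtubule-binding member known in mice from the sperm acrosome, lies on chromosome 18 and was at 5.11 FPKM in SIRPα-KO against 14.35 in WT. That is 2.81-fold lower, a log2 ratio of -1.33, and 1.5% of its words occur in another gene of the tables. Of the listed NHL-repeat and neuronal members, 6 of 7 were measured and only Trim36 and Trim3 were kept. Trim3, an NHL-repeat ligase, was at 8.04 FPKM in SIRPα-KO against 5.62 in WT, a log2 ratio of 0.45. Trim2, Trim9, Trim46 and Trim67 were at 0.07 FPKM or less in both libraries.

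Of the chromatin-associated TIF1 members 2 of 4 were kept, and of those of kinase signalling 4 of 5, and none was called, where 7.73% of all kept genes were. Trim28, the corepressor of KRAB zinc-finger proteins also known as KAP1, was at 10.83 FPKM in SIRPα-KO against 8.73 in WT, a log2 ratio of 0.28. Trim33, which binds SMAD4, was at 5.41 FPKM in SIRPα-KO against 4.33 in WT, a log2 ratio of 0.27. Trim24 was at 0.68 FPKM in SIRPα-KO against 0.73 in WT, and Trim66 was listed at 0 in SIRPα-KO and at 0.01 in WT.

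Trim8, which interacts with the cytokine signalling inhibitor SOCS1, was at 11.3 FPKM in SIRPα-KO against 9.23 in WT, a log2 ratio of 0.27. Trim27 was at 5.2 FPKM in SIRPα-KO against 4.03 in WT, Trim39 at 4.38 and 4.23, and Trim62, a ligase of the adaptor CARD9, at 1.36 and 1.98. Trim59 stayed at 0.55 FPKM in SIRPα-KO against 0.51 in WT. The median log2 ratio of the 4 kept kinase-signalling members was 0.15.

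Among 17 members without a listed role, 8 were kept and none was called, against 7.73% of all kept genes. Trim44, which lacks a RING domain, was at 9.0 FPKM in SIRPα-KO against 5.88 in WT, 1.53-fold higher with a log2 ratio of 0.54. Trim11 was at 4.95 FPKM in SIRPα-KO against 5.4 in WT, a log2 ratio of -0.11. Trim37, mutated in the human growth disorder mulibrey nanism, was at 1.43 FPKM in SIRPα-KO against 0.47 in WT, about 88 reads and 29, with a log2 ratio of 0.73. Trim47 was at 1.31 FPKM in SIRPα-KO against 0.49 in WT, Trim68 at 1.01 and 0.59, and Trim52 at 0.96 and 1.11. Trim37, Trim47 and Trim68 passed the filter in SIRPα-KO alone.

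The Trim43 copies, known from early mouse embryos, lie together on chromosome 9 and share words with each other. Trim43c was at 1.62 FPKM in SIRPα-KO against 0.59 in WT, about 35 and 13 reads, Trim43b at 1.03 and 0.81, and Trim43a was listed at 0 in SIRPα-KO and at 0.17 in WT. Between 48.1% and 59.3% of the words of each copy occur in another gene of the tables, so the split among them is uncertain. Their sum was 2.65 FPKM in SIRPα-KO against 1.57 in WT, a log2 ratio of 0.51.

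Members of striated muscle were close to absent from these macrophages. Trim55 and Trim63, ligases of the muscle sarcomere, were listed at 0 in SIRPα-KO and at 0.05 and 0.13 FPKM in WT, and Trim72, which acts in membrane repair, was at 0.07 FPKM in SIRPα-KO against 0.04 in WT. Of the other members under the filter, Trim7 was at 0.2 FPKM in SIRPα-KO against 0.39 in WT, Trim16 at 0.23 and 0.29, Trim17 at 0.21 and 0.1, Trim45 at 0.13 and 0.18, and Trim69 at 0.15 in both. Trim58, Trim60 and Trim75 stayed at 0.04 FPKM or less in both libraries. At this depth no difference can be read from members at such levels.

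TRIM proteins whose genes carry other names added 3 expressed genes, none of them called (7.73% of all kept genes were). Mid1, a microtubule-associated TRIM ligase on the X chromosome, was at 153.57 FPKM in SIRPα-KO against 83.94 in WT, 1.83-fold higher with a log2 ratio of 0.86. The libraries also differ in sex, as given above, and the part of sex in the Mid1 values was not tested. Mefv, which encodes the inflammasome protein pyrin, was at 41.3 FPKM in SIRPα-KO against 63.46 in WT, a log2 ratio of -0.61. Pml, the organiser of nuclear bodies, was at 76.65 FPKM in SIRPα-KO against 80.91 in WT, a log2 ratio of -0.08.

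The enzymes that supply TRIM ligases with ubiquitin or with the ubiquitin-like ISG15 were measured in full. Of 17 genes none was called in either direction, where 7.73% of all kept genes were, with a median log2 ratio of -0.05. Ube2w, which attaches the first ubiquitin at a protein's amino terminus, came closest, at 12.52 FPKM in SIRPα-KO against 5.9 in WT. That is 2.12-fold before 1 is added to each value, and its log2 ratio of 0.97 lay just under the limit. Ube2e1 was at 165.74 FPKM in SIRPα-KO against 98.37 in WT, a log2 ratio of 0.75. Uba1, the main ubiquitin-activating enzyme, was at 80.02 FPKM in SIRPα-KO against 127.76 in WT, a log2 ratio of -0.67.

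Within the ISG15 branch the differences did not share a direction. Isg15, the most abundant gene of the list, was at 1212 FPKM in SIRPα-KO against 1582 in WT, a log2 ratio of -0.38. Its activating enzyme Uba7 was at 61.9 FPKM in SIRPα-KO against 92.99 in WT, and its protease Usp18 at 291.6 and 450.7. Its conjugating enzyme Ube2l6, at 229.6 FPKM in SIRPα-KO against 185.75 in WT, and its ligase Herc6, at 119.86 and 117.74, had slightly higher values.

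Of 21 sensors, adaptors and substrates on which TRIM ligases act, 0 were higher, 1 was lower and 20 were neither, near the 7.73% of all kept genes that were called, with a median log2 ratio of 0.00. The lower gene was Traf3, an adaptor of antiviral and TNF-receptor signalling, at 3.89 FPKM in SIRPα-KO against 15.3 in WT, a log2 ratio of -1.74. Ddx58, which encodes the TRIM25 target RIG-I, was at 111.27 FPKM in SIRPα-KO against 123.96 in WT. Tab2, a target of TRIM30a, was at 133.33 FPKM in SIRPα-KO against 111.96 in WT, and Tab3 at 2.82 and 3.16. Ikbke, a kinase that activates IRF3, was at 309.3 FPKM in SIRPα-KO against 165.18 in WT, a log2 ratio of 0.90, and Irf7, the most abundant gene of the list by its mean, was at 1176 and 1182.

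Genes of interferon production and signalling, which control the inducible TRIM genes, were represented by 8 genes, and none was called, a number too small to set against the 7.73% called among all kept genes. The transcription factor genes Stat2 and Irf9 had log2 ratios of -0.07 and -0.07, and Irf1, the most abundant of the list, was at 605.7 FPKM in SIRPα-KO against 480.6 in WT. Ifnb1, which encodes interferon-β, was at 5.29 FPKM in SIRPα-KO against 3.93 in WT. The receptor genes Ifnar1, Ifnar2 and Ifngr2 had log2 ratios of -0.56, -0.52 and -0.49, and Ifngr1 one of 0.36.

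**Figure D4:**
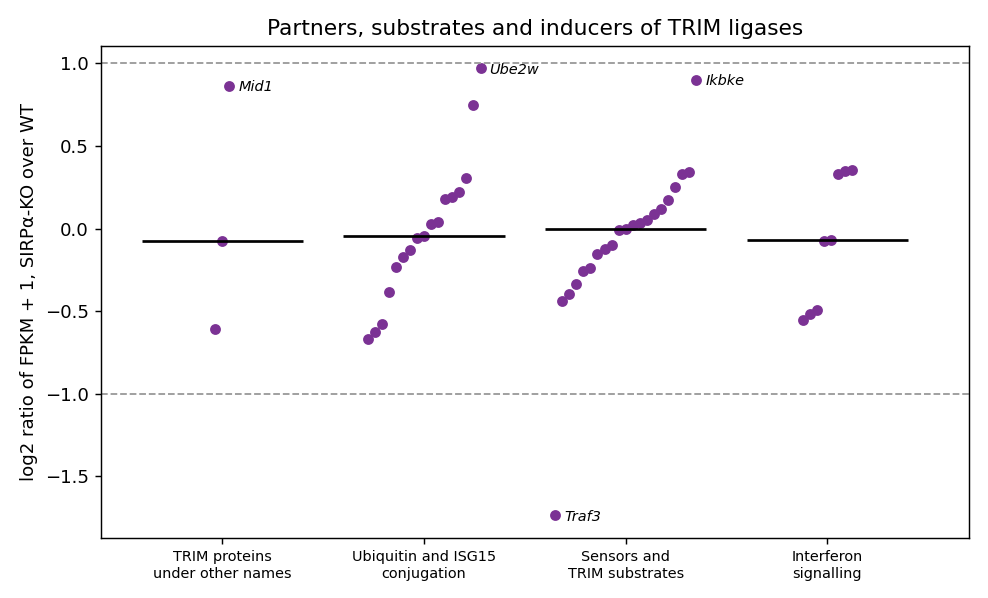
Log2 ratio of FPKM + 1, SIRPα-KO over WT, for kept genes of 4 lists around the TRIM ligases, 1 point per gene, with black bars at list medians and dashed lines at 2-fold. Traf3 at -1.74 is the only point outside the dashed lines, and the list medians lie between -0.08 and 0.00.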

How the data were processed

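RNA from 2 pooled macrophage libraries, 1 per genotype, was sequenced after BGI library preparation, per the labels. Each library has its own table of 16263 genes, and the values the authors deposited were read as FPKM, because low values step with transcript length and the sums differ (433460 in SIRPα-KO, 444294 in WT). The submitters' processing notes name mm9, R 3.3.3 and DESeq2 without roles. Which aligner and counter were used, and whether strand was, is not given in the sources used here. Since this unit is relative to library size, very abundant genes can shift all others.

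Values were compared as log2(FPKM + 1) among genes that reached 1 FPKM in either library, called at 2-fold. No test is possible with 1 library per group. Ratios and calls were tested on simulated data, with changes well past 2-fold planted only in genes at 5 FPKM or more in WT. That check does not cover low genes, differences near 2-fold, spread between animals or reads shared by copies. Depth was estimated from values of up to 6 reads on transcripts of up to 1500 bases. At the best depth 67.9% of 636 SIRPα-KO values and 70.2% of 608 WT values lay within 0.15 of a whole read, against 30% if there were no step. Whole reads were thus not recovered. Read numbers are approximate and cover counting error only.

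All kept members are named, with full description for Trim30a, Trim21, Trim25, called members and the 8 most abundant. From the other lists, called genes and the most abundant gene were set to be named, and further genes were chosen after their values were seen. Members, lists and roles were chosen with earlier results of these data known. Shared words of 50 bases came from GENCODE M21 transcripts, on either strand, and chromosomes and promoters from RefSeq for GRCm38.p6, a later assembly than mm9, matched by gene number for 57 of 57 members. The search past the start site was added after seeing the data. Alternatives were a pseudocount of 0.1, no filter, a minimum of 5 FPKM, 1.5-fold calls, scaling by the median ratio or to equal totals, and summed copies (Trim34, Trim12 and Trim30 rows). Python 3.11.15, pandas 2.3.3, NumPy 2.4.6, matplotlib 3.10.9 and Biopython 1.88 were used.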

Additional observations from a re-analysis of the deposited data

How the results depend on the processing

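The number of TRIM genes called higher was 1 in the comparison as reported and 5 with 1.5-fold calls. It was 0 with near-identical copies summed, where Trim34b merges into Trim34a. With a pseudocount of 0.1 FPKM it was 4 of 34 kept members, against 589 of 10092 kept genes. Trim37, Trim43c and Trim47 were added there, at log2 ratios of 1.42, 1.32 and 1.26. Like Trim34b, they passed the filter in SIRPα-KO alone, so their direction was fixed by it. The number called lower was 2 as reported, 4 with 1.5-fold calls and 1 with copies summed, where the small value of Trim30b is added to the far more abundant Trim30a, with which it shares next to no words, so that sum does not bear on its call. With the Trim34 and Trim12 pairs alone summed, an alternative chosen after seeing the data, 0 were higher and 2 lower. Both numbers were as reported with no filter, a minimum of 5 FPKM and both scalings. The median log2 ratio of kept TRIM genes was 0.10 as reported and -0.022 with median-ratio scaling, which divides SIRPα-KO values by 1.06 and puts the median of all kept genes at -0.01. Under that scaling Trim30d, Trim14, Trim12c, Trim56 and Trim39 changed sign. The median of the chromosome 7 cluster was 0.04 as reported, -0.04 with that scaling and -0.05 with copies summed. With the smaller pseudocount, both other filters, equal totals and summed copies the median of kept TRIM genes lay between 0.00 and 0.13. Over all 10092 kept genes, 346 were called higher and 434 lower as reported, and 589 and 676 with a pseudocount of 0.1 FPKM. No paired analysis was possible because each group has 1 library, and for the same reason no library could be left out.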
